A study of Mus musculus with 14 samples.

Results

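The 8 genes Dlx1, Dlx2, Dlx5, Dlx6, Sp8, Sp9, Gad1 and Gad2 mark the path from a neural stem cell of the adult mouse forebrain to a GABA-releasing interneuron. They were chosen by name, as 8 of the 33800 gene identifiers in the tables, and were followed through every kind of library. All 8 were listed in the culture tables and in the tables of fresh cells. The table of CPEB4 precipitates listed 7 of them, and Dlx5 was not analysed there.

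Stem cells of the subventricular zone, the lining of the lateral ventricle, turn from quiescent, astrocyte-like cells into dividing transit amplifying cells and then into neuroblasts that migrate to the olfactory bulb. The Dlx genes encode homeobox transcription factors of the ventral forebrain, arranged in the genome as neighbouring pairs, and Sp8 and Sp9 encode zinc finger transcription factors of olfactory bulb interneurons. Gad1 and Gad2 encode the glutamate decarboxylases, the enzymes that make the inhibitory transmitter GABA from glutamate.

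The cells came from the subventricular zone of adult mice. Wildtype cells were cultured for 3 days with BMP4, a signal that brings neural stem cells into quiescence, or for 3 days with EGF, a growth factor that keeps them dividing. Freshly isolated, untreated cells came from wildtype mice and from mice labelled Aplp1-/-, and antibody-linked tags marked the cells of 3 mice in each of these libraries. RNA immunoprecipitation (RIP) was made from untreated neurospheres, floating colonies of cultured stem cells, as 2 replicates in each of 4 groups. Wildtype spheres gave the input, the precipitate of control IgG and a CPEB4 precipitate, and spheres labelled CPEB4-/- gave another CPEB4 precipitate. CPEB4 is a protein that binds mRNA and regulates poly(A) tails and translation. Nothing in the labels says that the replicates were separate cultures, so p-values measure only the spread between these libraries. How the deletions were made, and the age of the mice beyond adult, was not given in the sources used here.

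Of the cultures, the BMP4 library held 887 cells and 17313999 counts, and the EGF library 1410 cells and 33603623 counts. The fresh libraries were shallow, with 1133263 counts in 2209 wildtype cells and 1227695 counts in 1879 cells labelled Aplp1 knockout, and they shared 13 cell barcodes. The RIP libraries held 10054346 to 17466296 counts. Aplp1 itself was lower in the library labelled knockout, at 54 counts, which is 33.0 to 57.4 counts per 1000000 (CPM, 95% interval), against 246 counts in wildtype, 191 to 246 CPM. Cpeb4 mRNA was not lower in the CPEB4 precipitates labelled knockout, at 4825 and 1285 counts against 3109 and 1025 in wildtype, with a log2 fold change (wildtype over knockout-labelled) of -0.65 ± 0.55 (SE, edgeR adjusted p = 1). Which part of the mRNA each deletion removes was not given in the sources used here, so neither gene settles the labels.

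In the mouse genome (GRCm38.p6 coordinates from RefSeq), 5 of the 8 genes lie on chromosome 2. Dlx1 (chr2:71528113-71533981) and Dlx2 (chr2:71543408-71546754) are neighbours, 9.43 kb apart. Gad1 (chr2:70561303-70602014) lies 926 kb before Dlx1, and Sp9 (chr2:73271926-73275771) lies 1725 kb after Dlx2, while Gad2 (chr2:22621015-22693877) is 47.9 Mb from Gad1. Dlx6 (chr6:6863334-6867970) and Dlx5 (chr6:6877801-6882068) form the other pair, 9.83 kb apart, and Sp8 stands alone (chr12:118846288-118852578). The long noncoding gene Dlx6os1 spans all 4637 bases of Dlx6, and the antisense gene Dlx1as overlaps 3344 bases of Dlx1. No strand setting of the counting was given in the sources used here, so reads of Dlx1 and Dlx6 cannot be told apart from reads of these partners there.

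Homeodomain proteins such as the DLX factors bind sites with the core TAATTA, a palindrome that reads the same on both strands. RefSeq start-site windows, from 250 bases before to 50 after a transcript start, were at hand for 6 of the 8 genes, as 8 windows. Only a window of Sp8 holds TAATTA, and it is shown because Sp8 had the most counts of the 8 genes in fresh neuroblast-like cells. The core, in capitals, begins 188 bases before this start, which lies inside the Sp8 gene span (chr12:118847359-118847388, plus strand, GRCm38.p6).
Sp8: ctcttgctggttTAATTAgtttccttttat
Among all 32851 windows of this length 5.29% hold TAATTA, so 1 of 8 windows is a description and not a site.

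The fresh cells show where along the lineage each gene was counted. Cells were clustered without the 8 genes, Dlx1as, Dlx6os1 and Aplp1, and clusters were named from marker genes. This gave 1725 quiescent stem cell or astrocyte-like cells, 815 active stem cell or transit amplifying-like cells, 595 neuroblast-like cells, 40 mature neuron-like cells, 182 oligodendrocyte-like cells, 241 microglia or macrophage-like cells and 490 cells with no name. In the neuroblast-like cells the 14 neuroblast markers summed to 11014 CPM in wildtype and 10293 CPM in the library labelled knockout. They summed to 2995 and 2447 CPM in the active cells and to 742 and 897 CPM in the quiescent cells. All 14 were counted in each of these classes in both libraries, and the same markers served to name the clusters. The oligodendrocyte-like class is weakly marked: quiescent cell markers summed to 43126 and 31925 CPM in it, above its own markers at 7562 and 1435 CPM, and 4 of its 10 markers were counted in the library labelled knockout. Each genotype is 1 library, so classes are described without a test, and intervals (95%, exact Poisson, binomial for shares) cover counting error only. Counts of a gene bunch in cells, up to 64 of Sp8 in 1 cell, so the intervals are too narrow as a measure of cell to cell spread.

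All 8 genes were 2-fold or more higher in neuroblast-like than in quiescent cells in both libraries, which was true of 8.4% of the 8598 genes with 20 or more counts. The summed level of the 8 genes was 81.1 CPM in quiescent cells (61.6 to 105), 1601 CPM in active cells (1519 to 1688) and 7755 CPM in neuroblast-like cells (7477 to 8041). In the wildtype library alone it was 8463 CPM in the neuroblast-like cells, and in the other library 7218 CPM. It was 3395 CPM with coarser clusters (leiden resolution 0.5) and 9108 CPM where cells were classed by marker counts alone. The coarser clusters left no class named active, and their neuroblast-like class held 1487 cells. The step between active and neuroblast-like cells cannot be seen at that setting. Sp8 gave 65.3% of the summed counts in neuroblast-like cells, 37.6% in active cells and 63.8% in quiescent cells. The other 7 genes together were at 29.4 CPM in quiescent, 999.6 CPM in active and 2691 CPM in neuroblast-like cells, so their step from active to neuroblast-like was 2.69-fold (2.46 to 2.95), against 4.84-fold with Sp8 (4.54 to 5.16). The quiescent cells thus held next to none of these transcripts, and the step from active to neuroblast-like cells was large in each library. Between those classes 6 of the 8 genes were 2-fold or more higher in neuroblast-like cells in both libraries, against 1.9% of all genes, and none was 2-fold or more lower, which was true of 5.56%. Between quiescent and active cells 6 of the 8 were 2-fold or more higher in active cells in both libraries, against 11.4% of all genes. Dlx1 and Dlx2 were the genes that did not pass 2-fold from active to neuroblast-like cells in both libraries.

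**Figure D1:**
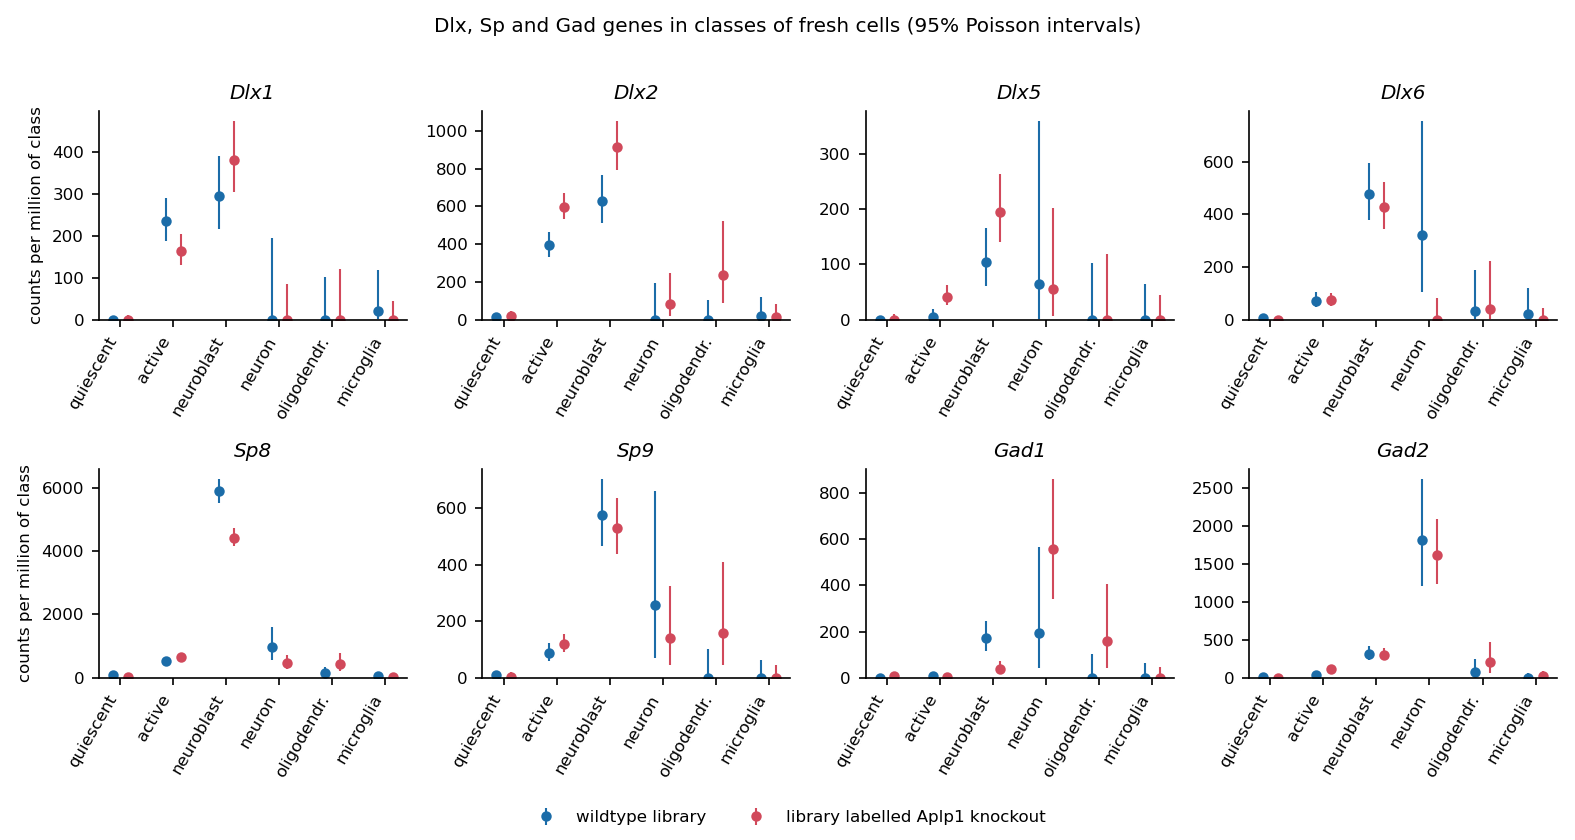
Level of each gene in 6 classes of fresh cells, in CPM of the class on a linear axis that differs between panels. Points are the wildtype library and the library labelled Aplp1 knockout, bars are 95% Poisson intervals; Dlx1 and Dlx2 already stand high in active cells, Sp8 and Sp9 peak in neuroblast-like cells, and Gad2 peaks in mature neuron-like cells.

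Dlx1 and Dlx2, the pair that acts earliest in this lineage, were already present in active cells. Dlx1 was at 234 CPM there in wildtype (86 counts) and at 164 CPM in the library labelled knockout (83 counts), and in neuroblast-like cells at 294 and 381 CPM. The ratio of neuroblast-like to active was 1.25 in wildtype (0.861 to 1.80), an interval that spans 1, and 2.32 in the other library (1.69 to 3.19). Dlx2 was at 395 and 599 CPM in active cells and at 630 and 915 CPM in neuroblast-like cells, ratios of 1.59 (1.23 to 2.07) and 1.53 (1.27 to 1.83). Active cells held 63.7% of all Dlx1 counts in the wildtype library and 50% in the other, and 56.6% and 57.5% of all Dlx2 counts. No count of Dlx1 was found in the 1725 quiescent cells, which allows at most 4.20 CPM, and Dlx2 had 11 counts in 6 of them.

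Dlx5 and Dlx6, the pair that follows Dlx1 and Dlx2 in forebrain development, were mostly counted later. Dlx6 was at 70.9 and 73.2 CPM in active cells and at 477 and 427 CPM in neuroblast-like cells, 6.74-fold (4.27 to 10.9) and 5.84-fold higher (3.95 to 8.80). Dlx5 had few counts, 2 in wildtype active cells and 17 in wildtype neuroblast-like cells, a ratio of 19.1 with an interval from 4.53 to 170. In the library labelled knockout it had 21 and 42 counts, a ratio of 4.70 (2.72 to 8.35), and 8 of the 21 lay in 1 cell. Quiescent cells held no count of Dlx5 in either library, and 2 counts of Dlx6, both in wildtype.

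Sp8 and Sp9, like Dlx6, were mostly counted in neuroblast-like cells. Sp8 was at 531 and 653 CPM in active cells and at 5899 and 4431 CPM in neuroblast-like cells, 11.1-fold (9.51 to 13.0) and 6.79-fold higher (5.98 to 7.72). It was found in 285 of 595 neuroblast-like cells, with a mean of 6.73 counts in a cell that had any, while the other 7 genes averaged 1.51 to 2.38. Sp9 was at 87.2 and 119 CPM in active cells and at 575 and 530 CPM in neuroblast-like cells, 6.59-fold (4.37 to 10.2) and 4.46-fold higher (3.24 to 6.20). Quiescent cells held 33 Sp8 counts in wildtype, of which 18 lay in 1 cell, and 4 in the other library.

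Gad1 and Gad2 were low before the neuroblast-like stage, and Gad2 was highest in the few mature neuron-like cells. Gad2 was at 35.4 and 119 CPM in active cells, 312 and 302 CPM in neuroblast-like cells and 1808 and 1619 CPM in mature neuron-like cells, 5.79-fold (3.52 to 9.36) and 5.36-fold (3.70 to 7.76) above the neuroblast-like cells. It was counted in 22 of the 40 mature neuron-like cells. Gad1 had 2 counts in the active cells of each library, 28 counts (171 CPM) in wildtype neuroblast-like cells and 8 (37.2 CPM) in the other library. Of those 28 counts, which lay in 10 cells, 9 were in 1 cell. In mature neuron-like cells Gad1 was at 194 and 558 CPM, on 3 and 20 counts. Of these, 2 of the 3 and 10 of the 20 lay in 1 cell of each library. In wildtype, 3 counts do not tell this level apart from the 171 CPM of neuroblast-like cells. The 40 mature neuron-like cells had no count of Dlx1, which allows at most 58.5 CPM, and 3 counts of Dlx2. Penk, a gene known from striatal projection neurons, was among the 10 leading genes of that cluster.

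**Figure D2:**
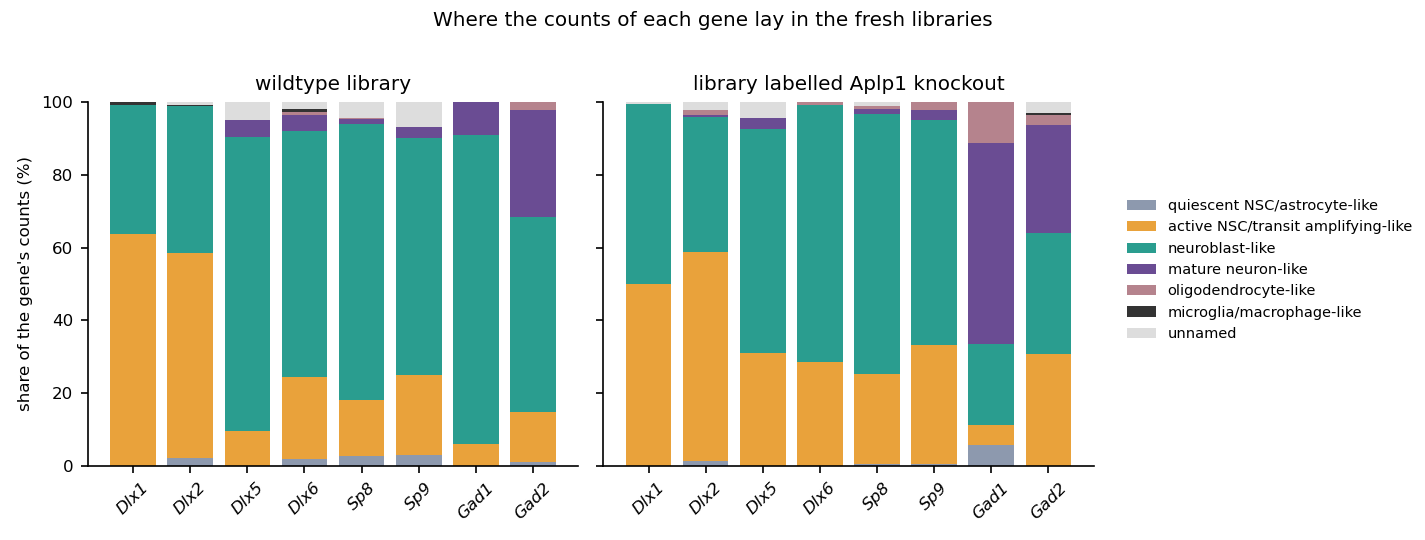
Share of all counts of each gene (percent, vertical axis) that lay in each class of fresh cells, for the wildtype library and the library labelled Aplp1 knockout. Active cells hold 50% or more of Dlx1 and Dlx2 counts in each library, neuroblast-like cells hold most Dlx5, Dlx6, Sp8 and Sp9 counts, and mature neuron-like cells hold a large part of Gad2.

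Active cells, with a median of 841 counts per cell, were deeper than neuroblast-like cells with 449 and quiescent cells with 337, and the few mature neuron-like cells were deepest with 1073.5, so shares of cells were also taken after thinning each cell to 200 counts. Without thinning, Sp8 was found in 46.3% of wildtype neuroblast-like cells and 12.1% of wildtype active cells. After thinning the shares were 37.8% (31.8 to 44.2) and 6.22% (3.98 to 9.18). Dlx2 was found in 18.5% and 17.7% of the same cells without thinning, and after it in 9.56% (6.22 to 13.9) and 8.38% (5.76 to 11.7), with intervals that overlap widely. In the library labelled knockout the thinned shares of Dlx2 were 13.0% (9.31 to 17.4) and 6.64% (4.45 to 9.45), so the classes lay further apart there, with intervals that still meet. In wildtype quiescent cells the thinned share of Sp8 was 0.664% and that of Dlx2 0.111%. Thinning left out 30 of the wildtype neuroblast-like, 9 of the active and 149 of the quiescent cells. The 241 microglia or macrophage-like cells, a type that should lack these genes, had 8 counts of them in 6 cells (70.7 CPM), at a median of 360 counts per cell. The level in quiescent cells, 81.1 CPM, lay inside the interval of these cells (30.5 to 139 CPM), so no expression is read from it. The oligodendrocyte-like cells of both libraries pooled stood higher, with 38 counts in 14 of 182 cells (698 CPM). Most of these counts lay in the 75 cells of the library labelled knockout. Sp8 had 11 counts and Dlx2 had 6 there, against 4 and 0 in the 107 wildtype cells. Free RNA was not estimated, and its part in these levels was not tested.

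Within the active class the genes were not even. A cluster with histone genes, Hmgb2 and Ube2c among its leading genes, which act in chromatin and mitosis, had 399 CPM of Dlx1 and 1172 CPM of Sp8. The other active cluster, led by Cdk6, Kif15 and Rrm2, had 97.6 CPM of Dlx1 and 335 CPM of Sp8. For Dlx1 the first was 4.33-fold higher in wildtype (2.69 to 7.14) and 3.76-fold in the other library (2.37 to 6.04). For Dlx2 the ratio was 1.90 in wildtype (1.35 to 2.67) and 1.08 in the other library (0.835 to 1.38), so the pair did not follow 1 pattern. For Sp9 the ratios were 8.12 (3.27 to 24.1) and 2.52 (1.47 to 4.33). The median depth was 719.5 counts per cell in the first cluster and 1044 in the other.

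Most cells carried few of the 8 genes at this depth. In the neuroblast-like class 189 of 595 cells had none, 167 had 1, 131 had 2, 72 had 3 and 36 had 4 to 6. Of the 109 active cells with Dlx1, 51.4% also had Dlx2, which was found in 20.2% of all active cells. Of the 82 neuroblast-like cells with Dlx1, 39.0% also had Dlx2, against 21.2% of the class. Of the 68 neuroblast-like cells with Gad2, 64.7% also had Sp8, against 47.9% of the class. Deeper cells hold more genes of any kind, and that part was not tested.

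**Figure D3:**
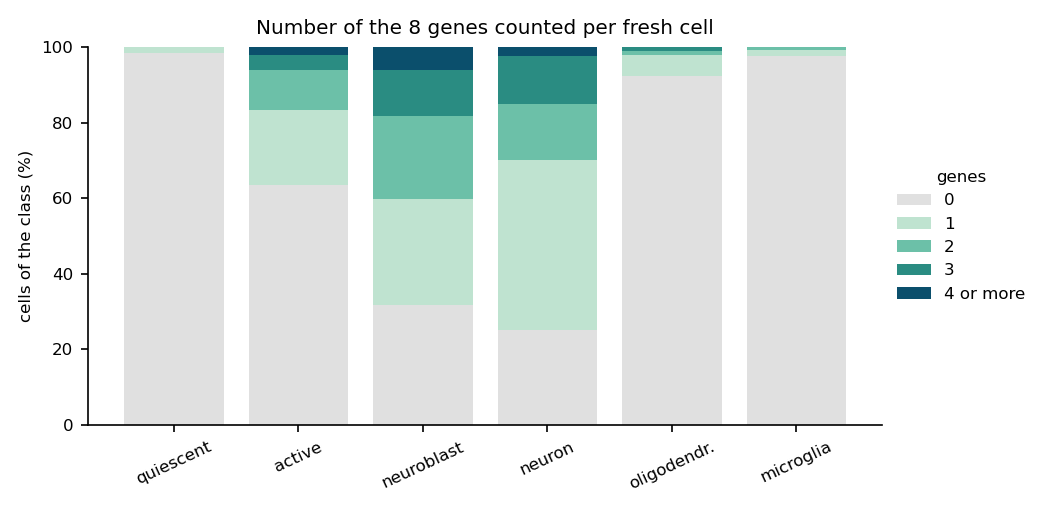
Share of cells (percent) in each class of fresh cells that had a count of 0, 1, 2, 3 or 4 and more of the 8 genes. In the quiescent class 98.3% of cells had none, against 63.6% of active and 31.8% of neuroblast-like cells; median depth differed between classes (337, 841 and 449 counts).

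Over the 13 groups of class and library with 20 or more cells, the genes whose log2(CPM + 10) most resembled that of the 8 genes summed were Tmsb10 (Pearson r = 0.93), Pik3c2b (0.93), Bcl11a (0.92), Tspan5 (0.92) and Paip1 (0.91), out of 5316 genes. These groups share libraries, and the values are a description. Among 19 other interneuron factor genes with 20 or more counts, a list that holds the noncoding Dlx1as and Dlx6os1, 10 were 2-fold or more higher in neuroblast-like than in quiescent cells in both libraries and 1 was lower, against 8.4% and 16.7% of all genes. Of 13 genes of GABA and glutamate handling, 1 was higher and 7 were lower. Of 4 olfactory bulb interneuron products 3 were higher, among them Dcx, a microtubule protein of neuroblasts, at 1046 and 701 CPM against 4.83 and 13.3 CPM. Dcx and Ncam1 of this list were also neuroblast markers used to name the clusters. The rise of Dcx was thus fixed by the naming and is no separate result. Of 4 oligodendrocyte lineage factors 2 were lower, and the 1 glutamatergic neuron factor with enough counts was lower.

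Between genotypes the libraries differed in several of these values, but each is 1 library. By CPM of the class, Dlx2 was higher in the library labelled knockout, 1.52-fold in active cells (1.24 to 1.86) and 1.45-fold in neuroblast-like cells (1.14 to 1.86). Sp8 was lower there in neuroblast-like cells, at 0.751 of the wildtype level (0.686 to 0.822). Thinned shares of cells did not all follow. Dlx2 was in 8.38% of wildtype and 6.64% of knockout-labelled active cells, and in 9.56% and 13.0% of neuroblast-like cells. Sp8 was in 37.8% and 40.4% of neuroblast-like cells. The intervals of each pair of shares overlap. Gad2 was 3.35-fold higher in active cells (1.82 to 6.65), where 18 of its 60 counts lay in 1 cell, and at 0.967 of the wildtype level in neuroblast-like cells (0.660 to 1.42). Oligodendrocyte markers summed to 422 CPM in the neuroblast-like cells of the wildtype library and 18.6 CPM in those of the other, and neuroblast-like cells made up 12.7% and 16.7% of cells; their part in these values was not tested. The intervals compare 2 libraries and not the genotypes.

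The mice allow a test only over cells that carried a clear tag, and few neuroblast-like cells did. At a minimum of 10 tag counts with at least 75% from 1 tag, 30 of 595 neuroblast-like cells (5.04%) were assigned to a mouse, against 25.7% of quiescent and 55.6% of microglia or macrophage-like cells. The tags bind MHC class I and CD45, proteins that immune cells carry. Summed over the 8 genes, the wildtype mice stood at 530, 1049 and 456 CPM and the knockout-labelled mice at 561, 389 and 1261 CPM. The wildtype range lay inside that of the knockout-labelled mice, with means of 678 ± 323 and 737 ± 462 CPM (SD, n = 3 each, exact permutation test, two-sided, p = 0.8, where the smallest possible p is 0.1). The mice held 2 to 8 assigned neuroblast-like cells and 6 to 20 assigned active cells each, and in such sums fewer cells cannot be told apart from less RNA per cell.

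Sp8 was the only 1 of the 8 genes with enough counts for the test across all genes. It had 12, 51 and 35 counts in the wildtype mice and 26, 22 and 52 in the knockout-labelled mice, with a log2 fold change (knockout-labelled over wildtype) of 0.06 ± 0.44 (SE, edgeR adjusted p = 1.00). None of 1109 genes was called (background 0%), 61 had an unadjusted p under 0.05, and DESeq2 called 1. Aplp1 had 4, 15 and 22 counts in the wildtype mice and 0, 7 and 0 in the knockout-labelled mice.

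The cultures compare cells under a signal for quiescence with cells under a growth factor. Dlx2 and Gad2 were higher with BMP4, and Gad1 was higher with EGF, while Sp8 and Dlx5 had no count in any of the 2297 cells. Dlx2 had 178 counts in the BMP4 culture (10.3 CPM) and 72 in the EGF culture (2.14 CPM), a ratio of 4.80 (3.63 to 6.40). Gad2 had 67 and 14 counts, 3.87 and 0.417 CPM, a ratio of 9.29 (5.17 to 17.9). Gad1 had 6 and 48 counts, 0.347 and 1.43 CPM, so it was 4.12-fold higher with EGF (1.76 to 11.8). The 2 decarboxylase genes thus stood on opposite sides, with intervals that do not overlap.

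Dlx1 had 30 and 37 counts, a ratio of 1.57 whose interval spans 1 (0.939 to 2.62). Sp9 had 26 counts with BMP4 and 72 with EGF, a ratio of 0.701 that also spans 1 (0.429 to 1.11). Dlx6 had 1 count with BMP4 and none with EGF. A count of 0 allows up to 0.173 CPM in the BMP4 culture and 0.0893 CPM in the EGF culture. Each culture is 1 library, so there is no replicate check. Past a 2-fold ratio lay 2 of the 5 genes with at least 10 counts on the BMP4 side and 1 on the EGF side. Over all 14502 such genes these sides held 23.1% and 15.4%, so the counts say nothing particular about the 8 genes.

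**Figure D4:**
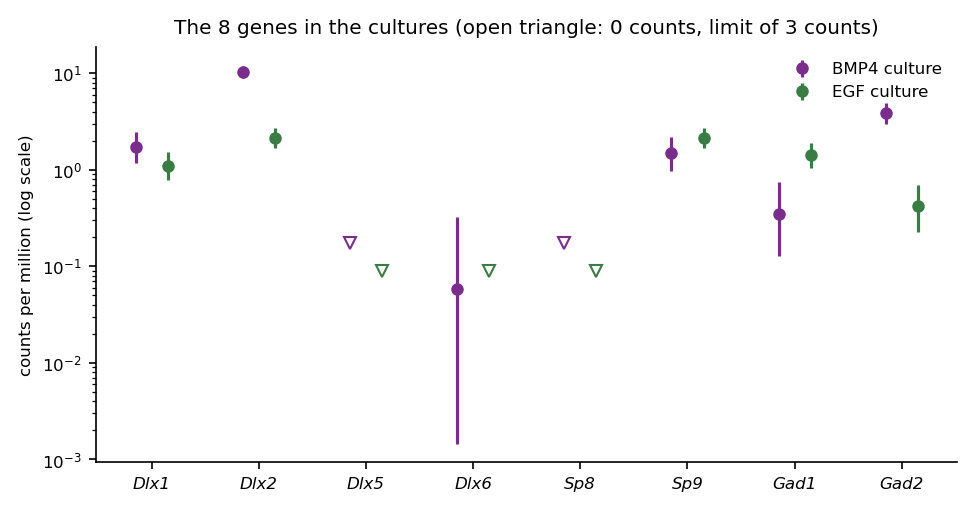
Level of each gene in the BMP4 culture and the EGF culture, in CPM on a log axis, with 95% Poisson intervals; open triangles mark 0 counts and stand at the level of 3 counts. Dlx2 and Gad2 lie higher with BMP4, Gad1 lies higher with EGF, and Dlx5 and Sp8 were not counted.

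The share of dividing cells differed between the cultures, with 169 of 887 BMP4 cells and 1112 of 1410 EGF cells carrying a count of Mki67, Top2a or Cdk1. Among cells without these transcripts the ratios of BMP4 to EGF were 6.56 for Dlx2 (3.35 to 14.7) and 6.15 for Gad2 (2.27 to 23.4), and Gad1 was 8.39-fold higher with EGF (2.67 to 34.7). Among dividing cells the ratio of BMP4 to EGF was 4.93 for Dlx2 (3.29 to 7.32) and 8.10 for Gad2 (3.21 to 20.9), while the 2.45-fold excess of Gad1 with EGF had an interval that spans 1 (0.626 to 21.0), on 2 and 33 counts. After thinning every cell to 4500 counts the Gad1 ratio was 3.46, also spanning 1 (0.755 to 32.1), on 2 and 11 counts. Within the EGF culture Gad1 was at 2.54 CPM in non-dividing and at 1.19 CPM in dividing cells, 2.13-fold higher in the former (1.08 to 4.04). For Dlx2 the interval of that ratio spanned 1 in each culture.

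The cells of the cultures rarely held these genes together. Dlx2 was found in 134 of 887 BMP4 cells (15.1%) and Gad2 in 56 (6.31%), and 13 cells had both, which is 9.70% of the cells with Dlx2. The median BMP4 cell had 4166 genes, and 215 of the 887 cells (24.2%) had any of the 8, against 202 of 1410 EGF cells (14.3%). The genes that best tracked the summed Dlx counts across cells had Pearson r of at most 0.16 in the BMP4 culture (Id4, Npy, Rpap2, Rgs20 and Sept11) and 0.14 in the EGF culture (Dlgap5, Aars, Eif2s2, Nup37 and Ptdss2), which is no finding in such sparse counts.

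Other genes of the pathway moved in both directions. Over all genes 23.1% passed 2-fold on the BMP4 side and 15.4% on the EGF side. Of 20 other interneuron factor genes 4 passed 2-fold on the BMP4 side and 5 on the EGF side, with a median log2 ratio of 0.37 against 0.15 over all genes. Pax6, a paired-box factor, was 2.78-fold higher with BMP4. Gsx1, a homeobox gene of early ventral progenitors, had 3 counts with BMP4 and 279 with EGF, 47.9-fold higher with EGF (16.2 to 234), Ebf1 was 14.8-fold and Bcl11b 5.80-fold higher with EGF. Of 15 genes of GABA and glutamate handling 9 were higher with BMP4 and 1 with EGF, with a median of 1.43. Among them the GABA receptor subunit gene Gabrb1 was 63.3-fold higher, Abat, which breaks GABA down, 30.3-fold and Gabra2 4.50-fold, and the GABA transporter gene Slc6a11 was 2.02-fold higher with EGF. Of 10 olfactory bulb interneuron products 3 were higher with BMP4 and 5 with EGF, the former led by the neuropeptide gene Npy (738 against 2 counts) and the latter by Calb2, which encodes calretinin (3 against 90 counts). Of 9 oligodendrocyte lineage factors 2 were higher with BMP4 and 4 with EGF, and of 2 glutamatergic neuron factors 1 was higher with EGF.

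The precipitates compare mRNAs recovered with CPEB4 with those of controls. None of the 6 testable genes was called in any of the 4 comparisons of edgeR's quasi-likelihood test with Benjamini-Hochberg adjustment over 17062 genes. Dlx6, with 1 count over all 8 libraries, fell below the filter. Gad1 was the best counted of the 8 genes and Sp9 the next, while Sp8 and Gad2 rested on 1 to 35 counts per library.

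For Gad1 the wildtype CPEB4 libraries held 1894 and 1443 counts, the knockout-labelled ones 819 and 374. It had 328 and 161 in IgG and 5195 and 1342 in input. As CPM scaled by edgeR's TMM factors, which level most genes between libraries, Gad1 was at 137 and 114 in the wildtype CPEB4 precipitates. It was at 39.2 and 72.8 in those labelled knockout, at 76.3 and 25.8 in IgG and at 104 and 31.1 in input. On this scale both wildtype CPEB4 libraries lay above all 6 others. Scaled by library totals, the first input stood above both, at 297 CPM against 143 and 108 CPM. The order describes Gad1 alone and was not set against the share of all genes. The log2 fold change was 1.17 ± 0.65 over the knockout-labelled precipitate (SE, edgeR adjusted p = 1) and 1.30 ± 0.66 over IgG (edgeR adjusted p = 0.601). No gene at all was called in either comparison (0% of 17062), 136 and 1360 genes had an unadjusted p under 0.05, and DESeq2 called 0 and 10 genes. DESeq2 gave Gad1 an adjusted p of 1 and 0.376. Over IgG, 534 genes were called by edgeR when only the 4 libraries compared were fitted, none of them among the 8. With each library left out in turn Gad1 stayed between 0.81 and 1.69 over the knockout-labelled precipitate and between 0.72 and 2.28 over IgG.

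For Sp9 the wildtype CPEB4 libraries held 111 and 100 counts, the knockout-labelled ones 29 and 52. It had 33 and 6 in IgG and 710 and 655 in input. On the TMM scale Sp9 was at 8.02 and 7.91 CPM in wildtype and at 1.39 and 10.1 CPM in knockout-labelled precipitates, at 7.67 and 0.960 CPM in IgG and at 14.2 and 15.2 CPM in input. The wildtype precipitates agreed closely, the knockout-labelled and IgG replicates did not, and 1 knockout-labelled library exceeded both wildtype libraries. The log2 fold change was 0.58 ± 0.88 over the knockout-labelled precipitate and 0.94 ± 0.92 over IgG (SE, edgeR adjusted p = 1 and 0.719). With each library left out in turn the latter ran from 0.056 to 3.04.

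In raw counts Dlx1 and Dlx2 were mostly seen in input. Dlx1 had 111 and 94 counts in input and 3 to 19 in the 6 precipitates. Dlx2 had 97 and 64 in input and 3 to 12 in the precipitates. On the TMM scale Dlx1 was at 2.22 and 2.18 CPM in input and at 0.430 to 1.56 CPM in the precipitates. Dlx2 did not stand apart on that scale, at 1.94 and 1.48 CPM in input. It was at 1.76 CPM in the second IgG library and at 1.56 CPM in the second knockout-labelled library. The wildtype CPEB4 precipitates differed from those labelled knockout by log2 fold changes of 0.37 ± 0.74 for Dlx1 and 0.11 ± 0.92 for Dlx2 (SE, edgeR adjusted p = 1 for both). The antisense gene Dlx1as had more counts than Dlx1, 816 and 249 in input, and 110 and 87 with wildtype CPEB4.

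Sp8 was uneven between replicates, at 29 and 26 counts in input, 1 and 18 in IgG, 3 and 8 with wildtype CPEB4, and 18 and 1 with knockout-labelled spheres. Gad2 had 14 and 1 counts in input, 1 and 8 in IgG, 7 and 7 with wildtype CPEB4, and 35 and 2 with knockout-labelled spheres. Their log2 fold changes, wildtype over knockout-labelled precipitate, were -0.58 ± 1.01 and -1.14 ± 0.98 (SE, edgeR adjusted p = 1 for both). The replicates of a group differed widely in both genes, and no difference between groups was detected. How much of this comes from depth and how much from the spread between libraries was not tested.

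**Figure D5:**
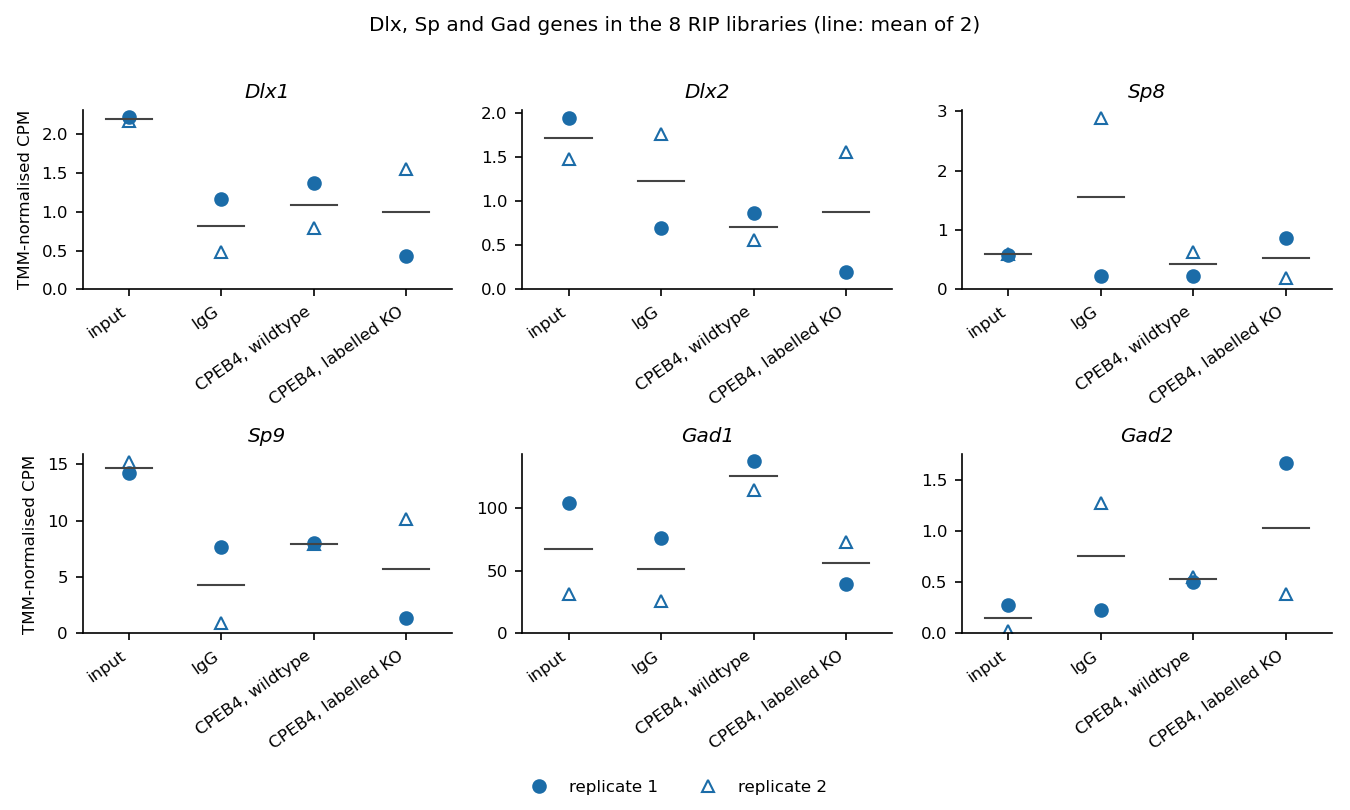
TMM-normalised CPM of 6 genes in the 8 RIP libraries, with replicates as filled circles and open triangles and a line at the mean of 2; vertical axes differ between panels. On this scale both wildtype CPEB4 libraries lie above the other 6 for Gad1. For Dlx1, Dlx2 and Sp9 both inputs lie above both wildtype CPEB4 libraries. These orders were not set against the share of all genes.

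Against input, 55% of all genes were called in the wildtype CPEB4 precipitate, 27.4% higher and 27.6% lower, and none of the 6 genes was. Their log2 fold changes were -1.01 for Dlx1, -1.26 for Dlx2, -0.49 for Sp8, -0.88 for Sp9, 0.89 for Gad1 and 1.72 for Gad2 (edgeR adjusted p from 0.178 to 0.673). This comparison depends on the scaling, because the TMM factors ran from 0.43 to 2.86 and were largest in the inputs. Scaled by library totals instead, the median of all genes moved from -0.09 to -1.57, 46.4% of all genes were lower and 6.38% higher, Dlx1, Dlx2 and Sp9 were called lower (log2 fold changes -2.48, -2.72 and -2.36, edgeR adjusted p = 0.013, 0.0212 and 0.0264), and Gad1 changed sign to -0.60. Relative to the median of all genes these 3 were then at -0.91, -1.15 and -0.79 on the log2 scale. With only the 4 libraries compared, Sp9 alone was called lower (edgeR adjusted p = 0.0262). IgG shared the direction for Dlx1, Dlx2 and Sp9 against the same inputs, at -1.48, -0.43 and -1.83, and called none of the 6 genes (background 33.8%, of which 18.2% higher and 15.6% lower).

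The other gene lists were called only against input. Over all genes 27.4% were higher and 27.6% lower in the wildtype CPEB4 precipitate than in input, and 18.2% and 15.6% in IgG. Of 20 interneuron factor genes 8 were higher and 2 lower in the wildtype CPEB4 precipitate than in input, and 6 were higher in IgG than in input. Zfhx3 and Ebf1 were among both, with log2 fold changes of 4.52 and 4.64 in the CPEB4 precipitate and 3.51 and 3.52 in IgG. Of 14 genes of GABA and glutamate handling 4 were higher in the CPEB4 precipitate (28.6%, near that of all genes) and none in IgG. In the same order, 5 and 3 of 5 olfactory bulb interneuron products were higher. Of 8 oligodendrocyte lineage factors 3 and 2 were lower, led by Olig1 (-3.94 and -2.91). The 1 testable glutamatergic neuron factor was not called. No gene of these lists was called between the wildtype CPEB4 precipitate and either the IgG or the knockout-labelled precipitate.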

How the data were processed

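All values used start from raw counts that the authors deposited: for each gene or mouse tag in a cell, and for each gene in a RIP library. The submitters' processing notes name mm10 as the build, and Bowtie2, SAMtools and Cell Ranger as tools. What each tool did, the annotation and the cell filters, and whether fresh counts are reads or molecules, was not given in the sources used here. Genes, gene lists and the markers were chosen with earlier results of these data known. Genes named beside the 8 are at most 3 of each list, by smallest p (RIP) or largest ratio (cultures, 50 or more counts), and the 5 genes of most similar pattern; Dcx in the fresh cells, and clusters singled out, were chosen after their values were seen. Some genes are not reported here.

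RIP counts were tested with edgeR 4.0.16 (quasi-likelihood, TMM factors, filterByExpr, all 8 libraries) and DESeq2 1.42.0 in R 4.3.3, calling an adjusted p under 0.05. Leaving out a library can leave 1 in a group, which is then assumed to vary like the others. Fresh cells were clustered in scanpy 1.11.5 (10000 counts per cell, log, 2000 variable genes, 30 components, 15 neighbours, leiden resolution 1). Doublets and free RNA were not removed. A cell was given to a mouse at 10 or more tag counts, 75% of 1 tag. Intervals are exact 95% intervals; a count of 0 is bounded at 3 counts. CPM are counts per 1000000 counts of the library or class. The edgeR fits were tested on simulated data. Gene names were paired through the Ensembl identifiers, and positions and start-site windows come from RefSeq by symbol.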

Additional observations from a re-analysis of the deposited data

How the results depend on the processing

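The 6 testable genes had no call between the wildtype and knockout-labelled CPEB4 precipitates or against IgG under any alternative, and also none among the mice. Against input, the CPEB4 precipitate called 1 gene (Sp9) without the filter on low counts, 1 (Sp9) with only the 4 libraries compared and 3 when scaled by library totals, a scaling chosen after seeing the data; leaving out each library gave 0 to 1 (Gad2, without the first input). IgG against input called 1 without the filter and 4 when scaled by totals (Dlx1, Dlx2, Gad1 and Sp9). Scaling by totals reversed Dlx2 (0.16) and Gad2 (0.35) over IgG, Gad1 (-0.60) over input, and Sp8 (-0.93) and Gad2 (-0.086) in IgG over input, and DESeq2 reversed Dlx2 (-0.054) over the knockout-labelled precipitate. With each library left out, log2 fold changes over the knockout-labelled precipitate ran from -0.50 to 1.33 (Dlx1), -1.10 to 1.87 (Dlx2), -1.49 to 1.11 (Sp8), -0.32 to 2.52 (Sp9) and -1.65 to 0.46 (Gad2). Over IgG they ran from -0.10 to 1.16 (Dlx1), -1.30 to 0.034 (Dlx2), -2.89 to 0.84 (Sp8), -1.27 to 1.17 (Gad2) and 0.056 to 3.04 (Sp9), over input from -1.45 to 0.063 (Sp8), 0.20 to 1.94 (Gad1) and 0.83 to 4.04 (Gad2), and in IgG over input from -1.33 to 0.0041 (Dlx2), -1.37 to 2.24 (Sp8), -1.42 to 0.66 (Gad1), -3.96 to -0.98 (Sp9) and 0.53 to 4.66 (Gad2). The cause was not tested. Over all genes, calls over the knockout-labelled precipitate went from 0 to 50 without the filter and to 4 without its first library, those over IgG from 0 to 165 without the filter and 534 with only 4 libraries, those of the CPEB4 precipitate over input from 9380 to between 5067 and 7001 with a library left out, and those of IgG over input from 5760 to between 1196 and 2387, or 11602 scaled by totals. The RIP replicate numbers are only numbers: deviations of same-numbered libraries correlated between -0.48 and 0.32. A replicate block called 0 of the 6 genes in each comparison, with Gad1 at 1.05 over the knockout-labelled precipitate and 1.44 over IgG. Sp8 in the mice was at -0.017 without a filter, at -0.56 with 3 or more tag counts and 0.78 with 20 or more, and between -0.42 and 0.63 with a mouse left out; the summed difference, 58.6 CPM as reported, was -230 CPM with 3 or more tag counts, 491 CPM with 20 or more and 145 CPM at a tag share of 90% (exact permutation p from 0.4 to 0.8). The neuroblast-like level of the 8 genes was 3395 CPM at leiden resolution 0.5, 8645 at 2.0, 9108 by marker counts alone, 9473 with 300 or more counts per cell, 8463 in the wildtype library, 7218 in the other and 2691 for the 7 genes without Sp8, a sum chosen after seeing the data. At resolution 0.5 no class was named active, and the neuroblast-like class held 1487 cells. No culture count of genes past 2-fold changed by over 1.5 times under TMM, thinning to 4500 counts, non-dividing cells alone or without the top 5% of cells. Depth limits Dlx5, Dlx6 and Gad1 in the fresh cells, and few counts stand behind Sp8 and Gad2 in the RIP. The Gad1 ratio of the cultures had an interval spanning 1 after thinning and among dividing cells.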

Other observations

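A cluster of 220 fresh cells with no name, led by Apold1, Hook1 and Ahnak, held 62 counts of Sp8 (756 CPM, 580 to 969) in 16 cells and 1 count of Dlx1, at a median of 250 counts per cell. Of the 62 counts, 19 lay in 1 wildtype cell. Over all cells with no name, Sp8 had 54 counts in wildtype and 14 in the library labelled knockout. The cluster's summed level of the 8 genes was 1159 CPM (937 to 1416), between the quiescent and active classes. The other 2 clusters with no name stood at 131 and 48.9 CPM.

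When each fresh cell was classed by its marker counts alone, without clustering, 436 neuroblast-like cells had 6074 CPM of Sp8 and 266 active cells had 278 CPM, while Dlx2 stood at 840 and 703 CPM. In the 62 microglia or macrophage-like cells of that scheme, 28904 counts held none of the 8 genes, which allows at most 104 CPM.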
